A study of Drosophila melanogaster with 9 samples.

Results

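The introns described here lie on the fourth chromosome of Drosophila melanogaster and belong to genes with a mean above 10 RPKM (reads scaled to feature length and library depth) in control cells. They were selected on that control level, and 490 of the 916 listed introns of chromosome 4, in 44 genes, met the rule, out of 60779 listed introns in all. A total of 95 genes on this chromosome have a listed intron, and 63 of them are in the table of gene levels. The selected genes had control means between 15.5 and 1841 RPKM, with a median of 53.4 RPKM. Ephrin (15.5 RPKM) and pan (18.2 RPKM) were the members nearest the threshold, and Asator (9.87 RPKM) and plexB (9.57 RPKM) stood just outside it.

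PolyA-selected RNA came from OSCs, a line of cultured somatic cells of the fly ovary, treated with siRNAs against GFP (siGFP, the control), Acn (siAcn) or tsu (siTsu), with 2 biological replicates per group. The cells carried no other treatment named in the labels, and age does not apply to the line. The reads behind each library's scale numbered 2.88e+07 and 3.04e+07 in siGFP, 1.87e+07 and 1.34e+07 in siAcn and 1.59e+07 and 1.15e+07 in siTsu cells, so knockdown libraries were shallower than controls. The tsu transcript was at 128 and 112 RPKM in siGFP and at 9.77 and 9.16 RPKM in siTsu cells, and the Acn transcript went from 98.1 and 140 RPKM to 16.8 and 16.5 RPKM in siAcn cells. All 5 OSC and follicle cell markers were listed (tj, fs(1)Yb, piwi, armi and Fas3), summing to 1354 to 1696 RPKM in siGFP, 949.6 to 1312 RPKM in siAcn and 601 to 878 RPKM in siTsu cells. Markers of the germline (4 of 6 listed), of hemocytes (2 of 4) and of muscle (2 of 4) summed to at most 7.49, 3.49 and 4.6 RPKM in any library, and none of the 4 fat body markers is listed. The lower marker sum moves with the knockdowns, and its part in the results below was not tested. It includes piwi, at 124 to 612 RPKM across the libraries. The paper reports retention of a piwi intron and lower piwi RNA in Acn- or Tsu-depleted OSCs, most of all after Tsu depletion. In bulk RNA, fewer cells of a type and less RNA per cell cannot be told apart.

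Chromosome 4 is the smallest fly chromosome. Most of it carries marks of heterochromatin, is bound by HP1a and by the protein Pof, and is dense in transposon remnants, yet its genes are transcribed at levels like those of genes elsewhere. The exon junction complex (EJC) is left on mRNAs upstream of each splice junction, with Y14 (encoded by tsu), Mago and eIF4AIII at its core, while Acn belongs to the associated ASAP complex, and these complexes are known to affect the removal of other introns in the same transcript.

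Introns on this chromosome were longer than others. The median intron of the selected genes was 352 nt on chromosome 4 and 100.5 nt among the 28176 introns of 5166 similarly expressed genes elsewhere. The longest intron of a gene had a median of 2288 nt on chromosome 4 and 332 nt elsewhere. Of 454 members matched by gene and length to a single intron of the BDGP6 annotation, 130 (28.6%) hold an annotated transposon copy, against 728 of 25681 (2.83%) elsewhere. INE-1, a short non-coding element abundant in fly heterochromatin, lies in 114 of these 454 introns, and 1360, a DNA transposon known from the same chromosome, in 24. The difference in transposon content was also present at equal length. In intervals of over 500 and up to 2000 nt a copy lies in 57 of 147 introns (38.8%) on chromosome 4 and in 113 of 4718 (2.40%) elsewhere, and in intervals of over 2000 and up to 10000 nt in 66 of 73 (90.4%) and 261 of 2757 (9.47%). These shares describe the annotation, and only uniquely aligned reads were counted, so bases repeated elsewhere in the genome yield fewer reads.

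The retention index gives intron RPKM as a percentage of gene RPKM, library by library. It was followed for introns above 10% in at least 1 of the 6 libraries. Of the 490 members, 117 introns in 30 genes passed, 69 of them in a siGFP library, 43 only in siTsu cells, and 5 only in both knockdowns. A member that passed through a knockdown alone had to be high there, so values are also given below for those that passed in siGFP cells. The 117 include 24 introns of unc-13, and 73 overlap another listed form in their own gene. They had a median of 183 reads over both siGFP, 91 over both siAcn and 100 over both siTsu libraries, while 48 members had no read in any library.

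The share above 10% was larger on chromosome 4 than among introns of the same length elsewhere, in control cells alone as well. Above 10% in a siGFP library were 69 of 490 members (14.1%) and 1868 of 28176 other introns (6.63%). By length of the listed interval, which reaches 35 nt into each flanking exon, these shares were 8.88% and 1.76% up to 150 nt, and 11.8% and 8.14% over 150 and up to 500 nt. They were 20.3% and 15.7% over 500 and up to 2000 nt, and 17.3% and 11.3% over 2000 and up to 10000 nt. None of the 5 intervals over 10000 nt passed. Gene levels also differed (median 53.4 RPKM against 32.9 RPKM), and their part in these shares was not tested.

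After tsu knockdown the index of chromosome 4 introns was higher, and that of other introns was not. The median index of the 117 was 10.9% and 9.90% in siGFP cells, 9.52% and 9.19% in siAcn cells, and 14.1% and 14.5% in siTsu cells. Both siTsu values lay above all others, while the 2731 introns elsewhere had medians of 10.8% to 11.7% across the 6 libraries. The median ratio of siTsu to siGFP was 1.6 on chromosome 4 and 0.981 elsewhere. Both siTsu libraries exceeded both siGFP libraries in 66 of the 117 introns (56.4%), against 25.7% of all 2848 introns analysed, and both were lower in 16 (13.7%), against 24.1% of all. The index was at least 2-fold higher in 38 (32.5%) on chromosome 4 and in 15.5% elsewhere, and at least 2-fold lower in 2 and in 10.7%. Among the members above 10% in siGFP cells, which the siTsu values did not select, both siTsu libraries were higher in 31 of 69 (44.9%), against 16.9% elsewhere, and lower in 16 (23.2%), against 32.5%. At least 2-fold higher were 7 of these 69 (10.1%), against 4.76% elsewhere. Introns are not replicates, so these shares carry no test.

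A gap was also present between introns of the same length, except in the shortest class. The median ratios on chromosome 4 and elsewhere were 1.18 and 1.04 up to 150 nt, 1.71 and 0.989 over 150 and up to 500 nt, 1.67 and 1.0 over 500 and up to 2000 nt, and 1.53 and 0.902 over 2000 and up to 10000 nt. Set against the median of its length class, the median member stood at 1.64. Up to 150 nt the order depended on introns without reads in a group, since the median elsewhere was 1.22 over the 450 introns with reads in both, above the 1.18 on chromosome 4. In that class 22.7% on chromosome 4 and 30.7% elsewhere were at least 2-fold higher. Among the 69 members above 10% in siGFP cells the median ratio was 1.19, against 0.864 elsewhere, and over all 490 members it was 1.11, against 0.695. The 44 members that overlap no other listed intron had 1.87, against 1.04.

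**Figure D1:**
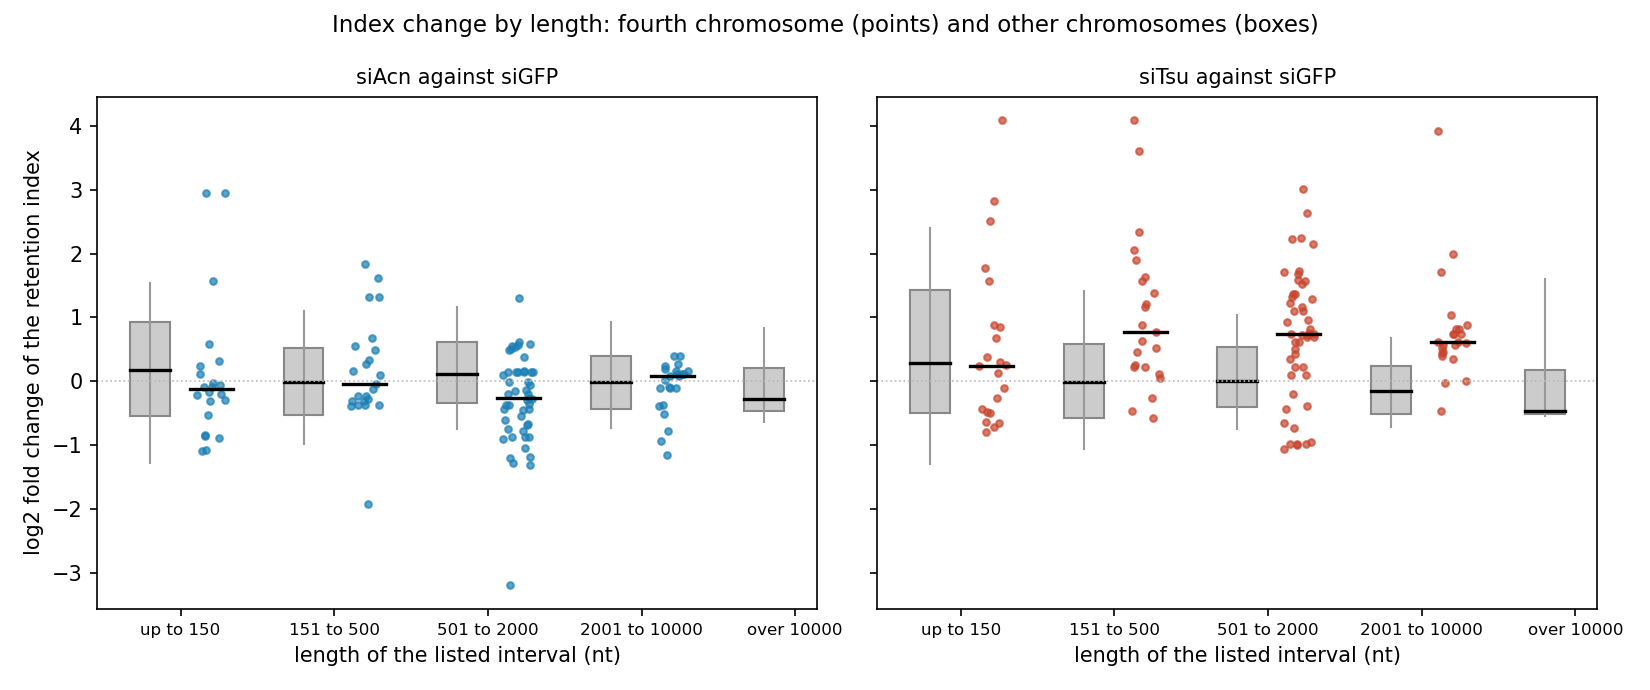
Log2 ratio of the retention index against siGFP (vertical axis) by length of the listed interval (horizontal axis), for siAcn (left) and siTsu (right). Points are the 117 introns of chromosome 4 with their median as a bar, and grey boxes give the quartiles and median of other introns with reads in both groups (450 of 540 up to 150 nt in siTsu), with lines from the 10th to the 90th percentile. In siTsu cells the chromosome 4 medians lie above those of other introns over 150 and up to 10000 nt, and in siAcn cells they lie below them except over 2000 and up to 10000 nt (1.06 and 0.994).

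The index has the transcript in its denominator, so the intron's own RPKM was read beside it. Intron RPKM had a median siTsu to siGFP ratio of 1.14 on chromosome 4 and 0.794 elsewhere. Without unc-13, whose transcript level was also higher in siTsu cells, the first value was 0.811, while the ratio of the index was 1.61. Outside unc-13, the median intron RPKM was thus below control while the median index was above it. The value of 1.14 includes members that passed 10% only in a knockdown. Among the 69 members above 10% in siGFP cells the median ratio of intron RPKM was 0.777, against 0.699 elsewhere. Over all 490 members it was 0.777, against 0.612.

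Among the followed introns, those with a transposon copy and those without both had median ratios above 1 in siTsu cells (1.67 and 1.37). In the class over 500 and up to 2000 nt, the 22 members with a copy had a median ratio of 2.15 and the others of 49 had 1.54. Median control indices in this class were 7.19% with a copy and 11.8% without. The higher ratio with a copy can thus follow in part from the limit on the index, and that part was not tested. The corresponding ratios elsewhere were 0.968, over 20 introns with a copy, and 1.0. With no limit, the ratios in this class were 1.498 with a copy and 1.053 without on chromosome 4. Elsewhere they were 0.9657, over 113 introns with a copy, and 0.8204, so without the limit the median was higher with a copy in both places. Among the followed introns over 2000 and up to 10000 nt the values on chromosome 4 were 1.53 with a copy (21 of 23 introns) and 1.32 without. The few without a copy had a median control index of 77.6%. With no limit, over 73 matched members, the values were 1.37 and 0.814. Elsewhere they were 1.24 (29 introns) and 0.896 under the limit, so in that class introns with a copy had the higher median elsewhere too.

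By gene, the median ratio in siTsu cells ran from 0.505 in Ephrin, 0.686 in Zyx and 0.717 in Arl4 to 15.1 in pan. The single followed introns of pan, PMCA (12.2), pho (4.76) and gw (3.2), and 4 of the 5 in Eph (4.45), passed 10% in siTsu cells only, so these high values follow in part from the limit itself.

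In siTsu cells 9 introns of chromosome 4 passed limma with a higher index and none with a lower one, 7.69% of the 117 beside 2.56% of all introns tested. At an unadjusted p under 0.05, 43 were higher and 4 lower, against 300 and 191 of 2731 elsewhere. Among the 69 members above 10% in siGFP cells 18 were higher and 4 lower, against 146 and 181 of 1868 elsewhere. Of the 9, 4 had passed the 10% limit only through a knockdown and so had to be high there. When the limit was applied in siGFP cells 3 of 69 introns were called (388 nt in Eph, 85 and 735 nt in unc-13). Under that limit 33 introns were called higher in all, these 3 included, with 1868 introns elsewhere in the test. Those described here lie in Eph, unc-13, CaMKI, Caps and Ank.

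Eph encodes the fly receptor tyrosine kinase for ephrins. Its intron of 141 nt (634422 to 634562, plus strand) was at 1.41% and 1.15% in siGFP, 3.05% and 3.34% in siAcn, and 21.6% and 22.2% in siTsu cells. This was the largest ratio among the called introns, 17.1-fold (log2 change 3.88 ± 0.60 SE, adjusted p = 0.0267), from 7 reads in siGFP and 34 in siTsu cells. It entered the test only through its siTsu values, and its p is not free of that selection. The intron of 388 nt in the 5′ UTR (631523 to 631910) had 21.3% and 21.5% in siGFP, 27.2% and 20.7% in siAcn, and 51.2% and 47.7% in siTsu cells (2.31-fold, adjusted p = 0.0329). Of 2 further Eph introns with large ratios, that of 573 nt (4.70-fold, adjusted p = 0.0518) and that of 1122 nt (4.45-fold, adjusted p = 0.164), neither passed.

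unc-13 encodes a protein that primes synaptic vesicles for release. Its neighbouring introns of 735 nt (895094 to 895828, minus strand) and 85 nt (894787 to 894871) both passed. The former had 13.4% and 12.4% in siGFP, 9.52% and 10.7% in siAcn, and 39.2% and 34.8% in siTsu cells (2.86-fold, adjusted p = 0.0267), with intron RPKM 5.26-fold higher. The latter had 14.0% and 12.6% in siGFP, 13.9% and 19.7% in siAcn, and 40.7% and 38.1% in siTsu cells (2.96-fold, adjusted p = 0.0271). In both introns the siTsu values lay apart from the other 4 libraries. The unc-13 transcript itself differed between the siGFP replicates, at 22.5 and 42.3 RPKM.

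In the kinase gene CaMKI the intron of 1163 nt (472081 to 473243, plus strand) had 15.4% and 13% in siGFP, 18.0% and 13.6% in siAcn, and 37.2% and 32.1% in siTsu cells (2.45-fold, adjusted p = 0.0469). Its intron RPKM stayed close to control, with a ratio of 0.887, while the transcript was at 36.7% of control. In Caps, named Cadps in BDGP6 and known for its part in the release of dense-core vesicles, the intron of 5322 nt (1269136 to 1274457, plus strand) had 4.66% and 5.36% in siGFP, 6.15% and 7.01% in siAcn, and 19.2% and 20.6% in siTsu cells (3.96-fold, adjusted p = 0.0359). This longest called intron also entered through its siTsu values alone, and it holds INE-1, 1360 and other copies. In Ank, an ankyrin gene linking membrane proteins to spectrin, the intron of 53 nt (139128 to 139180, minus strand) had 10.3% and 13.5% in siGFP, 10.7% and 11.7% in siAcn, and 28.6% and 42.0% in siTsu cells (2.96-fold, adjusted p = 0.0415).

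**Figure D2:**
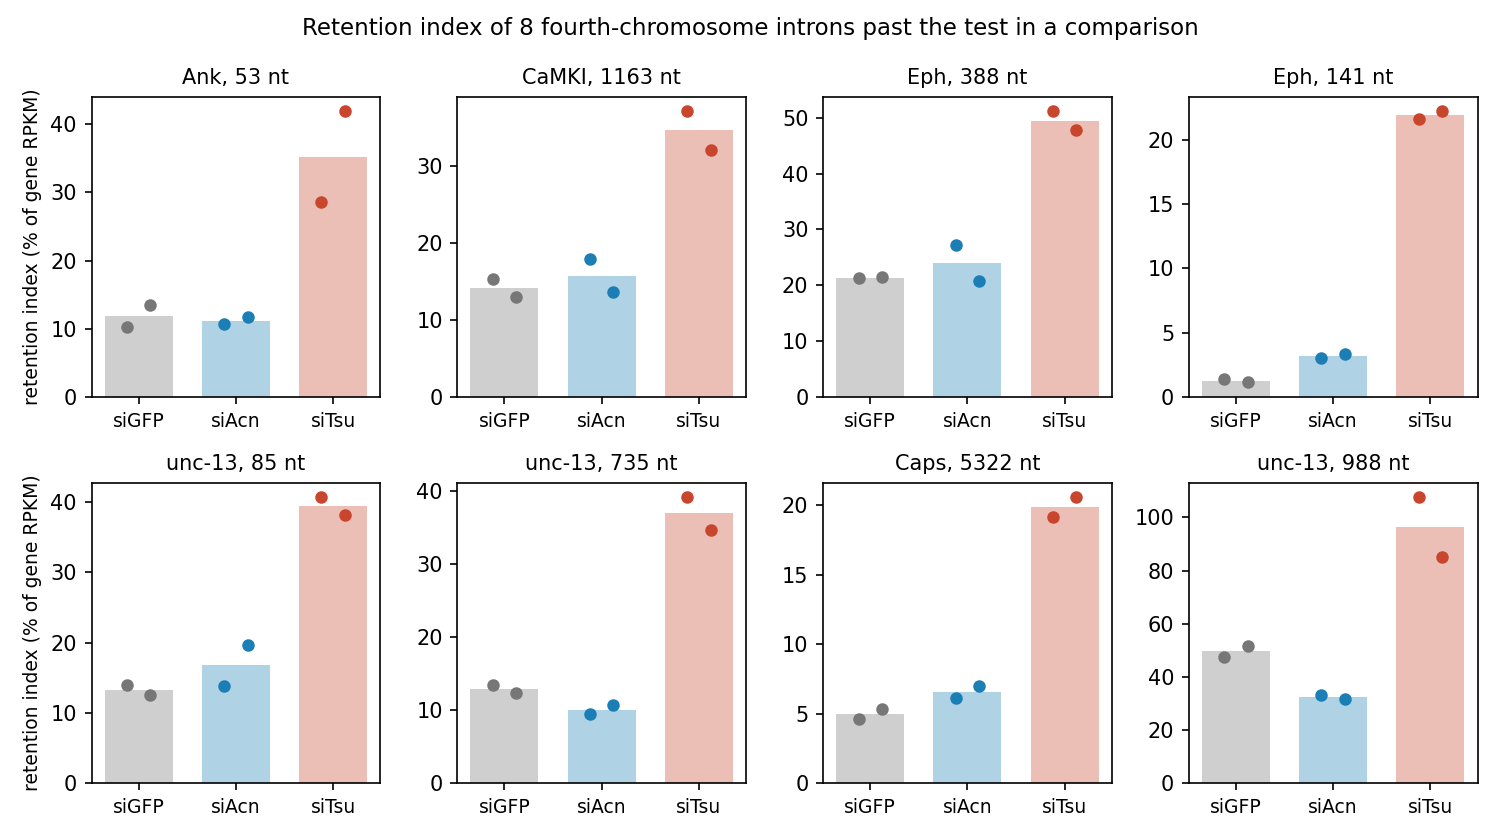
Retention index (intron RPKM as a percentage of gene RPKM, vertical axes from 0) of 8 chromosome 4 introns that passed limma in a comparison, by group. Points are the 2 libraries of a group and bars their mean. In each panel both siTsu points lie above both siGFP points.

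Calls on single introns rested on all libraries. Of the 9, none passed when either siTsu library was left out, 1 without siGFP replicate 1 and 2 without siGFP replicate 2, and with siAcn replicate 1 or 2 left out 4 and 2 passed. All 9 kept their direction in each of these fits.

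Some of the largest ratios did not pass the test, in introns that passed the 10% limit only in siTsu cells. In pan, the TCF factor of the Wnt pathway, the intron of 2965 nt (103373 to 106337, plus strand) was at 1.07% and 0.452% in siGFP, 0.438% and 0.721% in siAcn, and 9.57% and 13.4% in siTsu cells (15.1-fold, adjusted p = 0.179). The groups were far apart, on 24, 9 and 243 reads. The PMCA intron of 376 nt, in the gene of the plasma membrane calcium pump, had 1.24% and 0.111% in siGFP against 11.1% and 5.43% in siTsu cells (12.2-fold, adjusted p = 0.219). The pho intron of 602 nt, in the gene of a DNA-binding Polycomb group protein, had 2.71% and 3.24% in siGFP, 1.42% and 1.16% in siAcn, and 19.2% and 9.10% in siTsu cells (4.76-fold, adjusted p = 0.214). The unc-13 intron of 1073 nt gave 6.24-fold (adjusted p = 0.233).

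The lowest ratios in siTsu cells were in Ephrin, the ligand gene of Eph, and in Zyx, which encodes the focal adhesion protein zyxin. The overlapping forms of the 5′ UTR intron of Ephrin, shared one ratio of 0.505, and that of 1441 nt had 28.1% and 25.6% in siGFP, 16.4% and 12.8% in siAcn, and 14.5% and 12.6% in siTsu cells (adjusted p = 0.0961). The Zyx intron of 576 nt had 16.8% and 13.3% in siGFP and 7.53% and 6.95% in siTsu cells (0.480-fold, adjusted p = 0.197). Neither passed, although siTsu and siGFP values did not overlap.

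The highest control indices were in Caps and unc-13. The Caps intron of 1168 nt (1237237 to 1238404) was at 157% and 119% of its gene in siGFP, 56.4% and 55.2% in siAcn, and 192% and 131% in siTsu cells. In siGFP and siTsu cells, but not in siAcn cells, it was thus read more densely than the exons. Its intron RPKM in siTsu cells was 0.394 of control, and its lower index in siAcn cells did not pass (0.404-fold, adjusted p = 0.0775). The unc-13 introns of 69, 1011, 3624 and 237 nt had mean control indices of 116%, 86.7%, 79.2% and 76.8%. The first overlaps CR43361 and the others an antisense gene, asRNA:CR44029, in BDGP6, and whether counting used strand is not stated, so reads of these genes cannot be told apart from intron reads. Of all 117 introns, 12 overlap an exon of another gene, and without these the median siTsu ratio was 1.61. The longest introns followed were 2 nearly identical forms in CaMKII of 6721 and 6718 nt, at 20.5% and 23.7% in siGFP and 32.3% and 35.4% in siTsu cells for the former (1.53-fold, adjusted p = 0.174). That of 5766 nt in unc-13 came next, with a ratio of 1.32 (adjusted p = 0.405).

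After Acn knockdown the index of chromosome 4 introns was not higher than in control cells. The median ratio was 0.927, against 1.02 elsewhere, but over all 490 members it was 0.855, against 0.801, so the order of the groups depended on the 10% limit. Among the 117, 8 members (6.84%) were at least 2-fold higher, against 14.2% elsewhere, and 10 (8.55%) at least 2-fold lower, against 9.56%. In limma 1 passed, 0.855% of the 117 beside 1.33% of all introns tested. At an unadjusted p under 0.05, 4 were higher and 14 lower, against 312 and 153 of 2731 elsewhere. Large ratios that did not pass were in Ank (112 nt, 3.57-fold, adjusted p = 0.195), PMCA (376 nt, 3.07-fold, adjusted p = 0.525) and Dyrk3 (64 nt, 2.98-fold, adjusted p = 0.187). The Crk intron of 963 nt, in the gene of an SH2 and SH3 adaptor, had 1.49. The lowest ratio was in the Ephrin intron of 653 nt, at 14.0% and 18.1% in siGFP and 0% and 3.50% in siAcn cells, on 105 and 6 reads (0.109-fold, adjusted p = 0.131). The unc-13 forms of 404 and 1812 nt (0.264 and 0.413) and the pho intron of 602 nt (0.433) followed, with adjusted p of 0.131, 0.274 and 0.498. The siAcn call was on an intron that passed the 10% limit only in knockdown cells, and it was lost when siGFP replicate 1, either siAcn or either siTsu library was left out.

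Setting siTsu directly against siAcn cells tests the difference between the knockdowns itself. The median ratio of the index was 1.62 on chromosome 4 and 0.945 elsewhere, and 42 members were at least 2-fold higher in siTsu cells and none at least 2-fold lower, against 14.0% and 12.5% elsewhere. Among members above 10% in siGFP cells 13 of 69 (18.8%) were at least 2-fold higher, against 7.01% elsewhere. Past limma were 2 of the 117 (1.71%), beside 0.281% of all introns, both in unc-13 and both with an adjusted p of 0.0369. They are the intron of 735 nt described above and that of 988 nt (892852 to 893839, minus strand), which had 47.6% and 51.8% in siGFP, 33.1% and 31.9% in siAcn, and 108% and 85.2% in siTsu cells. Neither passed in a fit with the replicate block or without any of the 6 libraries.

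Transcripts of these genes were called lower in siTsu cells at a higher share than among all genes tested. Of 44, 12 (27.3%) passed limma with a lower level, beside 2.46% of all 7362 genes tested, and none with a higher level, beside 1.22% of all. At an unadjusted p under 0.05, 17 were lower and 2 higher, against 927 and 284 of 5166 elsewhere. The median log2 change of the 44 was -0.18, that of the 5166 genes elsewhere -0.11 and that of all genes tested -0.09. These medians lay close together, and the calls came from the lower end of the 44.

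Caps had the largest fall, from 22.4 and 20.2 RPKM in siGFP and 28.6 and 26.9 RPKM in siAcn to 7.14 and 7.35 RPKM in siTsu cells, 34.1% of control (log2 change of RPKM + 1 of -1.43 ± 0.13 SE, adjusted p = 0.00829). CaMKI went from 86.4 and 65.3 RPKM in siGFP and 63.2 and 53.5 RPKM in siAcn to 27.3 and 28.5 RPKM in siTsu cells (-1.40 ± 0.17). In both genes the siTsu values lay below the other 4 libraries. Pur-alpha, which encodes a single-stranded nucleic acid binding protein, went from 39.0 and 31 RPKM to 13.6 and 12.4 RPKM in siTsu cells (-1.35 ± 0.15). CG11360 had 43.6 and 46.9 RPKM in siGFP, 26.9 and 25.8 RPKM in siAcn, and 17.3 and 19.1 RPKM in siTsu cells (-1.27 ± 0.13), the lowest value of the 44 in siAcn cells as well (-0.76, adjusted p = 0.178). pho went from 64.8 and 59.0 RPKM to 24.4 and 28.4 RPKM (-1.20 ± 0.17).

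Another 6 fell less. CaMKII was at 41.6 and 41.8 RPKM in siGFP and 19.8 and 20.4 RPKM in siTsu cells (-1.02), and PMCA at 56.6 and 67.0 RPKM and 28.2 and 32.3 RPKM (-1.0). The log2 changes were -0.85 for bip2 (Taf3 in BDGP6, a TFIID subunit), -0.82 for CG32000, -0.70 for Crk and -0.67 for Eph. Kif3C, a kinesin gene with the longest intron of the 44 (15668 nt), had -0.67 as well but more uneven replicates (adjusted p = 0.0978), and myo (-0.61, adjusted p = 0.0772), a TGF-beta ligand gene, and Ank (-0.57, adjusted p = 0.0704) also missed the threshold.

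**Figure D3:**
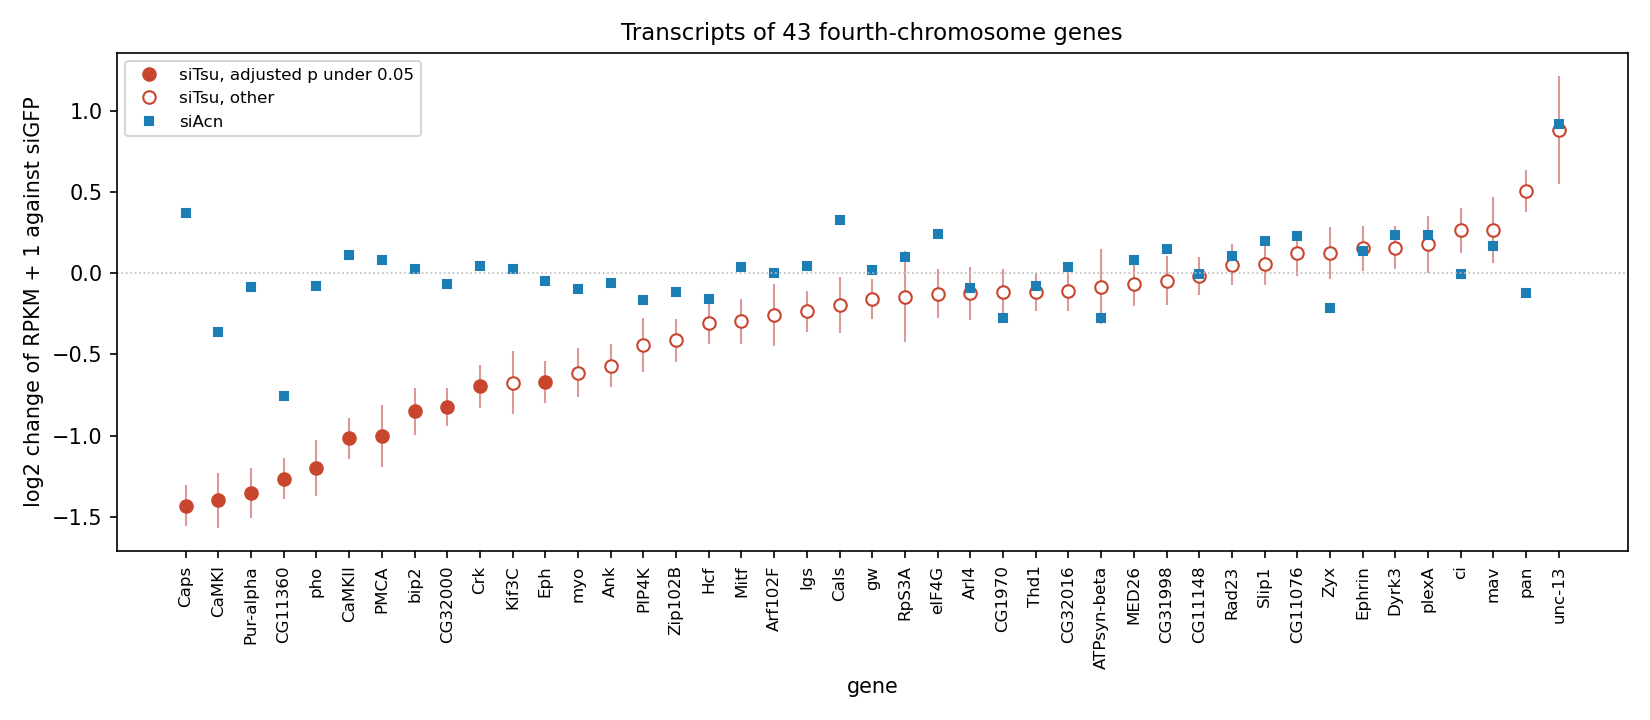
Log2 change of RPKM + 1 against siGFP for 43 of the 44 genes, ordered by the value in siTsu cells. Circles are siTsu, with SE from limma as lines and filled where the adjusted p is under 0.05, and squares are siAcn. The 11 filled circles lie between -1.43 and -0.67, and the siAcn values of the same genes lie between -0.76 and 0.37.

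At the other end, unc-13 had 22.5 and 42.3 RPKM in siGFP, 47.6 and 73.9 RPKM in siAcn, and 66.4 and 50.3 RPKM in siTsu cells (log2 change 0.88 in siTsu, adjusted p = 0.170, and 0.92 in siAcn, adjusted p = 0.571). pan was at 17.1 and 19.2 RPKM in control cells and, after tsu knockdown, at 25.9 and 26.5 RPKM (0.51, adjusted p = 0.0786). mav (0.26), ci (0.26), plexA (0.18) and Dyrk3 (0.16) followed, with adjusted p of at least 0.291. None of these passed, and in plexA the libraries overlapped.

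In siAcn cells none of the 44 transcripts passed limma in either direction, beside 0.0136% of all genes lower (1 gene, Acn itself). At an unadjusted p under 0.05, 1 was lower and 2 higher, against 227 and 94 of 5166 elsewhere. Their median log2 change was 0.02, against -0.05 over all genes tested. The lowest after CG11360 were CaMKI (-0.36), ATPsyn-beta (-0.28), CG1970 (-0.28) and Zyx (-0.21). The highest after unc-13 were Caps (0.37), Cals (0.33), eIF4G (0.24), Dyrk3 (0.24) and plexA (0.24). All of these had adjusted p of at least 0.538.

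Between siTsu and siAcn cells 5 of the 44 (11.4%) were lower in siTsu, beside 0.638% of all genes: Caps (log2 difference -1.8, adjusted p = 0.00708), Pur-alpha (-1.27, adjusted p = 0.0360), CaMKII (-1.13, adjusted p = 0.0327), pho (-1.12, adjusted p = 0.0481) and CG32000 (-0.76, adjusted p = 0.0479). For these genes the difference between the knockdowns is thus itself tested, and in each the siTsu libraries lay below both siAcn libraries. Of the 12 calls against siGFP, none held when siGFP replicate 1 or either siTsu library was left out, 5 without siGFP replicate 2 and 10 without either siAcn library. Of the 5, at most 1 held when any library was left out, and Caps was that gene. The directions did not change in these fits.

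By function, the calls were spread over the lists, whose counts stand beside 27.3% of the 44 and 2.46% of all genes. Of 6 transcription factor genes (ci, pan, lgs, Mitf, Hcf and bip2) bip2 alone fell, and their median log2 change in siTsu cells was -0.27. The remaining 5 had -0.31 for Hcf, -0.30 for Mitf, -0.24 for lgs, 0.26 for ci and 0.51 for pan. Of 21 signalling and adhesion genes 5 fell (Caps, CaMKII, PMCA, Crk and Eph), with a median of -0.16. Of 12 genes listed for RNA, translation and mitochondria 4 fell, among them Pur-alpha, pho and CG32000, with a median of -0.14. The Polycomb group protein encoded by pho does not do what the name of that list says, and gw and Thd1 stand in the signalling list as well. The ribosomal protein gene RpS3A, the most abundant of the 44, had 2211 and 1472 RPKM in siGFP and 1904 and 1398 RPKM in siTsu cells, which overlapped, and ATPsyn-beta, Rad23 and eIF4G had log2 changes of -0.08, 0.05 and -0.13. CG11360 and CaMKI were the 2 that fell among 7 genes in no list.

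Among proteins known to bind or modify this chromosome, encoded elsewhere except for pho, 14 were tested and pho alone fell, beside 2.46% of all genes. Their median log2 change in siTsu cells was -0.28. Pof was at 17.2 and 13.3 RPKM in siGFP, 11 and 9.72 RPKM in siAcn, and 13 and 9.63 RPKM in siTsu (log2 change -0.41, adjusted p = 0.256). The HP1a transcript was at 415 and 433 RPKM in siGFP, 358 and 365 RPKM in siAcn, and 337 and 335 RPKM in siTsu (log2 change -0.33, adjusted p = 0.200), and the H3K9 methyltransferase gene egg had -0.26 (adjusted p = 0.262). Each of the 3 was lower in both siTsu than in both siGFP libraries without passing the test, beside 38.3% of 5166 genes elsewhere. In siAcn cells each of the 3 was lower in this way as well, beside 22.4% of those genes. Values above control in siTsu cells were present in the list too, as in wde (0.21) and HP4 (0.06). The part of these levels in the changes on chromosome 4 was not tested.

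Transcripts were also set against others with a longest intron of the same length. Of the 23 genes whose longest listed interval is over 2000 and up to 10000 nt, 9 were called lower in siTsu cells (39.1%), against 5.6% of 821 genes elsewhere, with median log2 changes of -0.30 and -0.19. Of 15 genes in the class over 500 and up to 2000 nt 2 were called (13.3%), against 2.76% of 1087. Of 3 genes over 10000 nt 1 was called, PMCA, against 10.1% of 445. None of the 3 genes over 150 and up to 500 nt was called. The 12 called genes had longest introns of 1185 to 13493 nt (median 3982 nt) and the other 32 of 104 to 15668 nt (median 1973 nt). Over the 44 genes the longest intron and the log2 change had a Spearman correlation of -0.19, against -0.10 over 5166 genes elsewhere. Long introns did not always go with lower transcripts: plexA (6947 nt), pan (7927 nt), CG11148 (4466 nt) and Zyx (4408 nt) had log2 changes of 0.18, 0.51, -0.02 and 0.12.

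**Figure D4:**
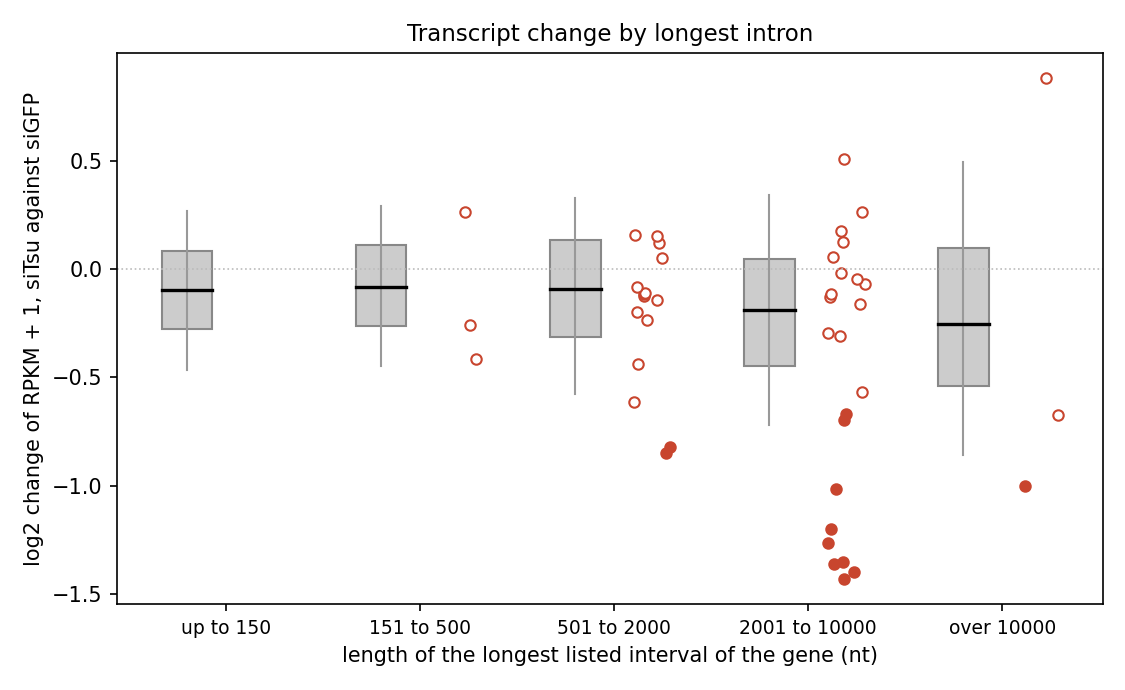
Log2 change of RPKM + 1 in siTsu against siGFP cells (vertical axis) by the longest listed interval of the gene (horizontal axis). Circles are chromosome 4 genes, filled where the adjusted p is under 0.05, and grey boxes give the quartiles and median of genes elsewhere, with lines from the 10th to the 90th percentile. Over 2000 and up to 10000 nt, 9 of 23 circles are filled.

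Intron RNA and transcripts were finally compared gene by gene, with all listed introns of a gene summed, shortest first and without overlap, and no limit on the index. This summed index was higher in siTsu than in siGFP cells in 28 of the 44 genes, with a median ratio of 1.27, against 0.778 elsewhere. In siAcn cells the medians were 0.911 and 0.865. All 12 genes with a lower transcript had a higher summed index, with a median ratio of 2.06. Elsewhere 77 of the 143 genes called lower had a higher one, with a median of 1.08. Both sets were called on gene RPKM, the denominator of the index, so a higher index follows in part from that choice. Summed intron RPKM had a median ratio of 0.885 in the 12 (above 1 in 5 of 12), against 0.460 elsewhere (above 1 in 18 of 143). The 32 other genes had medians of 0.996 for the index and 0.953 for intron RPKM, against 0.770 and 0.708 in 5023 genes elsewhere.

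In the 12 genes the intron RNA thus kept closer to control than the transcript, and in 5 of them, pho, PMCA, Eph and Crk included, it was above control. The summed index was higher in PMCA (3.02-fold), Eph (2.51-fold), Crk (2.44-fold) and pho (2.39-fold). In Caps it was 1.55-fold higher, while the summed intron RPKM was 0.525 of control. In CaMKI, Eph and Caps an intron passed the test upward and the transcript passed it downward. Because the index holds the transcript level as its denominator, these 2 calls are not independent of each other.

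**Figure D5:**
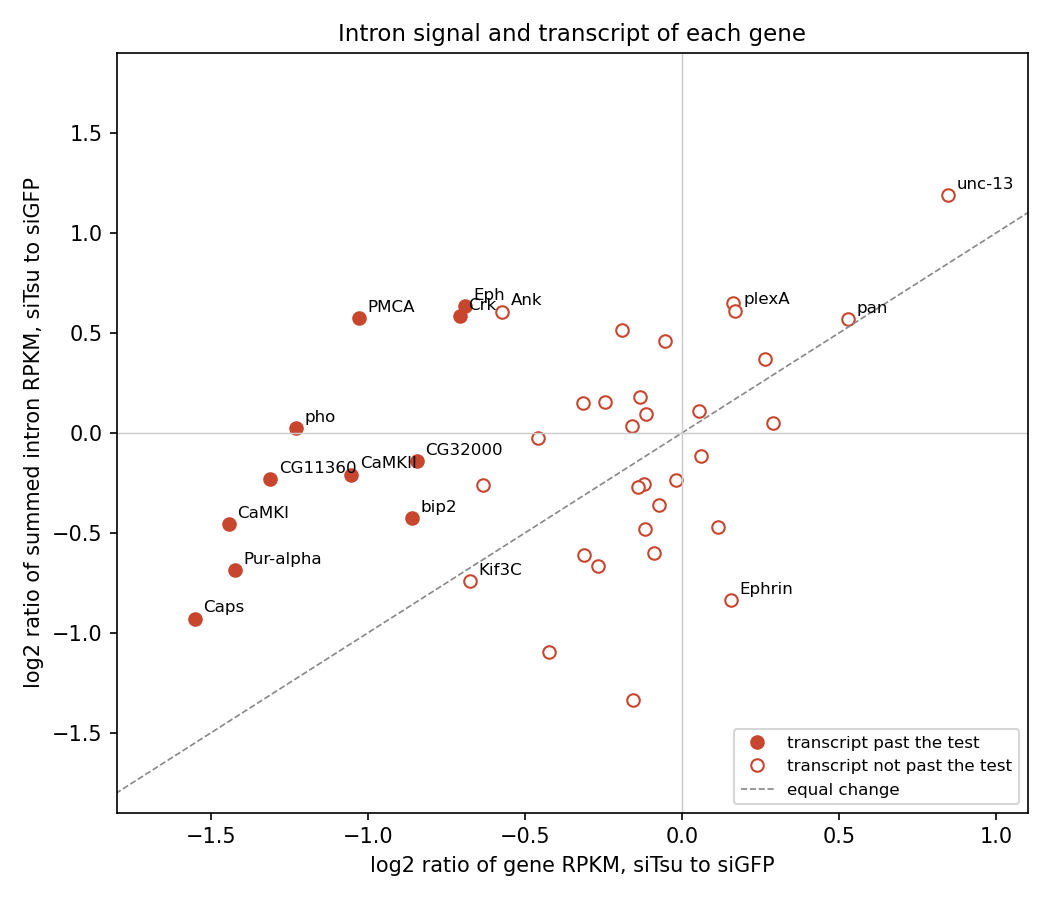
Log2 ratio of summed intron RPKM (vertical axis) against log2 ratio of gene RPKM (horizontal axis), siTsu to siGFP, for 42 chromosome 4 genes (CG11076, with no intron read in siTsu cells, is not drawn). Filled circles are 11 genes with a lower transcript, and the dashed line marks equal change. All 11 lie above the line, 4 of them above a ratio of 1.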

How the data were processed

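The authors aligned the high-quality bases of 50-nt paired-end reads from strand-specific libraries to the genome plus FlyBase transcript and intron models, kept uniquely aligned reads, and deposited RPKM values per gene (8335 genes) and per intron (60779 introns, dm3 coordinates). The submitters' notes name Bowtie and GSNAP, and versions are not given in the sources used here. Every column of the tables was used. The rRNA-depleted libraries were not used here.

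Intron RPKM came out as whole reads in 100% of values, within 0.1 read, which gave the depths. Listed intervals exceed introns by 35 nt on each side. Introns were matched to BDGP6 by gene and length only, for names, place and transposon copies, and no coordinates were converted. No sequences are shown.

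The 7362 genes averaging 1 RPKM or more entered as log2(RPKM + 1), and the 2848 introns as the log2 ratio of intron to gene RPKM after adding 0.1 RPKM to each. Both went through limma 3.58.1 under R 4.3.3 (eBayes with trend, all 6 libraries in one fit, two-sided) at a Benjamini-Hochberg adjusted p under 0.05 over all features. The p-values measure the spread between the biological duplicates. Ratios of the index are ratios of the means of 2 libraries, with no pseudocount. Python 3.11.15 (numpy 2.4.6, pandas 2.3.3, scipy 1.17.1) served for the rest. On simulated data the test called 54% of genes changed by 1 on the log2 scale and 83% of those changed by 2 for siTsu, and 6% and 36% of introns.

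The members and lists were chosen with earlier results of these data known. Named were genes and introns past the test, the 6 highest and 6 lowest transcripts, the 8 largest rises and 5 largest falls of the index with at least 20 reads over the libraries compared, the 5 highest control indices, the 3 longest introns, and list members. Alternatives varied the pseudocount, filters, scaling, groups in the fit, averaging, overlap and length matching, included a replicate block, and dropped each library in turn. Added after seeing the data were the summed index, the values without unc-13 and those without introns holding exon bases. Counts cover every member, and values of 1 gene that the rule names are not reported here or drawn by name.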

Additional observations from a re-analysis of the deposited data

Results flagged for a closer look

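The values in this section are differences between siTsu and siAcn cells on the log2 scale that passed limma, so that the 2 knockdowns differed in a direct test. Transcripts were lower in siTsu cells by this measure for Caps (-1.8), Pur-alpha (-1.27), CaMKII (-1.13), pho (-1.12) and CG32000 (-0.76). The index of 2 unc-13 introns was higher in siTsu cells, with 1.55 for that of 988 nt and 1.85 for that of 735 nt.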

How the results depend on the processing

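No called gene or intron changed direction under an alternative. The siAcn medians, which carry no test, did: the index against introns of the same length was 0.889, and above 1 with no 10% limit or the siGFP limit, and the transcript median of 0.02 was -0.041 without siGFP replicate 2. Leaving out each library in turn gave 0 to 10 lower transcripts in siTsu cells, 0 to 1 between siTsu and siAcn cells, 0 to 4 higher introns in siTsu, 0 to 1 in siAcn and 0 between the knockdowns. The median ratio of the index was 1.46 to 1.65 (siTsu), 0.927 to 0.964 (siAcn) and 1.54 to 1.78 (siTsu to siAcn), and against other introns of the same length 1.56 to 1.74, 0.839 to 0.965 and 1.6 to 1.96. Against transcripts of the same longest-intron class the median log2 difference was -0.042 to 0.094 (siAcn), -0.17 to -0.024 (siTsu) and -0.19 to -0.13 (siTsu to siAcn). The cause of the changes below was not tested.

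The replicate numbers are shared by the groups, with only 2 pairs, and same-numbered libraries had deviations correlated at 0.514, 0.443 and 0.634 for genes and 0.0933, 0.0606 and 0.0377 for introns. With the replicate block 17 transcripts were lower and 2 higher in siTsu, 1 lower in siAcn, and 15 lower and 1 higher in siTsu than in siAcn cells, and introns between the knockdowns numbered 0.

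Between siTsu and siAcn cells 3 transcripts were lower with 0.1 RPKM added, 3 with no filter on low genes, 3 after centring and 1 with only the groups compared. Introns higher in siTsu numbered 14 with 1 RPKM added, 0 with no 10% limit, 3 with the limit applied in siGFP, 4 with only the groups compared and 2 without overlapping forms. Between the knockdowns these were 20 with 1 RPKM added and 20 in genes over 20 RPKM, and 0 with no limit, with only the groups compared or without overlap. In siAcn cells 0 introns were higher with no limit, the siGFP limit or only the groups compared, and 1 (1 RPKM added) and 2 (genes over 20 RPKM) were lower.

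The median ratio in siTsu was 1.11 with no limit, 1.19 with the siGFP limit, 1.87 without overlap and 1.27 for summed introns, and against the same length 2.07, 1.49 and 1.83 for the first 3, and 1.53 with 1 RPKM added. In siAcn it was 0.855, 0.868, 0.965 with 1 RPKM added and 0.881 without introns holding exon bases, and against the same length 1.09, 1.01, 0.986 without overlap and 0.841 without exon bases. Between the knockdowns it was 1.30, 1.40, 1.93 without overlap, 1.83 without exon bases and 1.34 for summed introns, and against the same length 1.5 with the siGFP limit and 1.94 without overlap. Depth limits single introns, as in the Eph intron of 141 nt, with 7, 9 and 34 reads in siGFP, siAcn and siTsu cells.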
